A study of Homo sapiens with 12 samples.

Results

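The genes described here encode the matrix that cells lay down and the integrins that hold them to it. Members were taken by symbol from the deposited table of 28278 gene symbols: every collagen chain, laminin chain and integrin subunit, and 12 matrix glycoproteins (FN1, TNC, TNXB, THBS1, THBS2, THBS3, VTN, SPP1, NID1, NID2, AGRN and HSPG2). This gave 94 genes: 11 fibrillar collagen chains, 10 chains of collagens in or next to basement membranes, 23 other collagen chains, 12 laminin chains, 18 integrin alpha subunits, 8 integrin beta subunits and the 12 glycoproteins. The rule used symbols alone, though it was set with earlier results of these data known.

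The study passaged OVCAR3 (labelled an ovarian cancer line) and CCL218 (a colorectal cancer line derived from HT29) in 96-well plates, with or without pulses of hydroxychloroquine (HCQ), a weak base that collects in lysosomes and blocks autophagy. HCQ-evolved plates received 15 pulses of 48 h and grew for 7 days without drug before RNA was taken. Control plates were passaged beside them without HCQ, and wells of each plate were combined by position into a left (L), middle (M) and right (R) pool. The 4 groups were thus control OVCAR3, HCQ-evolved OVCAR3, control CCL218 and HCQ-evolved CCL218, with 3 pools each. The labels give passage 19 for control pools and passage 15 for HCQ-evolved pools, so passage and drug history cannot be told apart. All pools of a group came from 1 plate, and p-values therefore measure the spread between parts of a plate.

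The 12 libraries held 31147822 to 59965861 counts each. The limit of detection was taken as 3 counts, which is 0.05 to 0.0963 CPM (counts scaled to the size of the library) depending on the pool and covers counting error only. All pools expressed epithelial markers (EPCAM 667 to 1227 CPM). Colorectal markers were present under both line labels, with LGALS4 at a mean of 729.8 CPM in control OVCAR3 and 1046 CPM in control CCL218. Of 9 ovarian markers, SOX17, EMX2 and ESR1 had at most 2 counts in any pool. WT1 was low in control pools (0.103 to 0.407 CPM in OVCAR3, 0.197 to 0.392 CPM in CCL218). Its means in HCQ-evolved OVCAR3 and CCL218 were 1.6 and 1.13 CPM. The other ovarian markers were present under both labels (in control OVCAR3, PAX8 at 9.29 to 14.9 CPM and MUC16 at 13 to 30.5 CPM). The ovarian list summed to 87.4 to 107 CPM in control OVCAR3 and 131 to 165 CPM in control CCL218. OVCAR3 and CCL218 are used here as labels, and differences between them as differences between labelled groups. The sum of 10 colorectal markers was 972 to 1244 CPM in control OVCAR3 and 256 to 759 CPM in HCQ-evolved OVCAR3. By means, its largest terms fell (LGALS4 729.8 to 360, VIL1 241 to 110 CPM), whereas PHGR1, GPA33 and CDH17 did not. In CCL218 the sum was 1135 to 1699 CPM in control and 1195 to 1275 CPM in HCQ-evolved pools. There the mean of CDH17 rose from 3.84 to 52.5, GPA33 from 4.77 to 34.7 and CDX2 from 23.2 to 67.8 CPM, while LGALS4 fell from 1046 to 785 CPM. The part of these differences in the results for either line was not tested. Of 9 fibroblast and mesenchymal markers, 7 (PDGFRA, PDGFRB, DCN, LUM, THY1, FAP and POSTN) stayed below 1 CPM in every pool, TAGLN was at 2.44 to 6.88 CPM and ACTA2 at 0.892 to 4.12 CPM. The mean of ACTA2 was 1.37 CPM in control and 2.78 CPM in HCQ-evolved OVCAR3, and its part in the results was not tested. Fewer cells of a type and less RNA per cell cannot be told apart in such pools.

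Pools also differed along transcript length. The deviation of each pool from the mean of its line correlated with exonic length across genes (Spearman's rho -0.38 to 0.457, genes are not independent). The value farthest from 0 was that of HCQ-evolved OVCAR3 R (0.457) in OVCAR3 and that of control CCL218 L (-0.38) in CCL218, though others came close (control OVCAR3 M at 0.388, control CCL218 M at 0.363). Matrix genes are long, with a median exonic length of 8592.5 bp against 3628 bp for all matched symbols. With a trend on length and GC content removed, the median log2 fold change of tested members was 0.40 in OVCAR3 and 0.33 in CCL218. Without that removal it was 0.34 and 0.24. The part of length in the changes was not tested. Within HCQ-evolved OVCAR3, R held the highest level for 25 of the 35 members that were tested, against 44.4% of all genes tested. For some members changes are given without HCQ-evolved OVCAR3 R or control CCL218 L as well. A change printed without such a value can still depend on those pools.

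Collagens are triple helices of alpha chains. Fibrillar collagens build the ropes of connective tissue, whereas type IV collagen forms the sheet of the basement membrane beneath epithelia. Laminins are cross-shaped trimers of an alpha, a beta and a gamma chain that line that sheet, and integrins are pairs of an alpha and a beta subunit that bind matrix outside the cell and the cytoskeleton inside. In epithelia the laminin that holds the chains LAMA3 and LAMB3 is bound by the integrin of alpha 6 and beta 4 (ITGA6, ITGB4) together with collagen XVII (COL17A1), and this assembly is the hemidesmosome.

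Of the 94 members, 35 reached the level needed for testing (at least 1 CPM, before TMM scaling, in at least 3 of the 6 pools of a line), 34 of them in both lines and COL9A2 in OVCAR3 alone. These were 7 of 12 laminin chains, 7 of 18 integrin alpha and 6 of 8 integrin beta subunits, 5 of 12 glycoproteins and 10 of 44 collagen chains. The other 59 members were too low, and 54 of them were below 1 CPM in all 12 pools. TNXB and COL11A2 had 0 counts in every pool. Among chains of connective tissue, COL1A2 peaked at 0.041 CPM (2 counts), COL3A1 at 0.129 CPM, COL5A1 at 0.206 CPM and COL12A1 at 0.123 CPM. SPP1 (osteopontin) peaked at 0.193 CPM, and VTN (vitronectin) at 0.123 CPM.

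**Figure D1:**
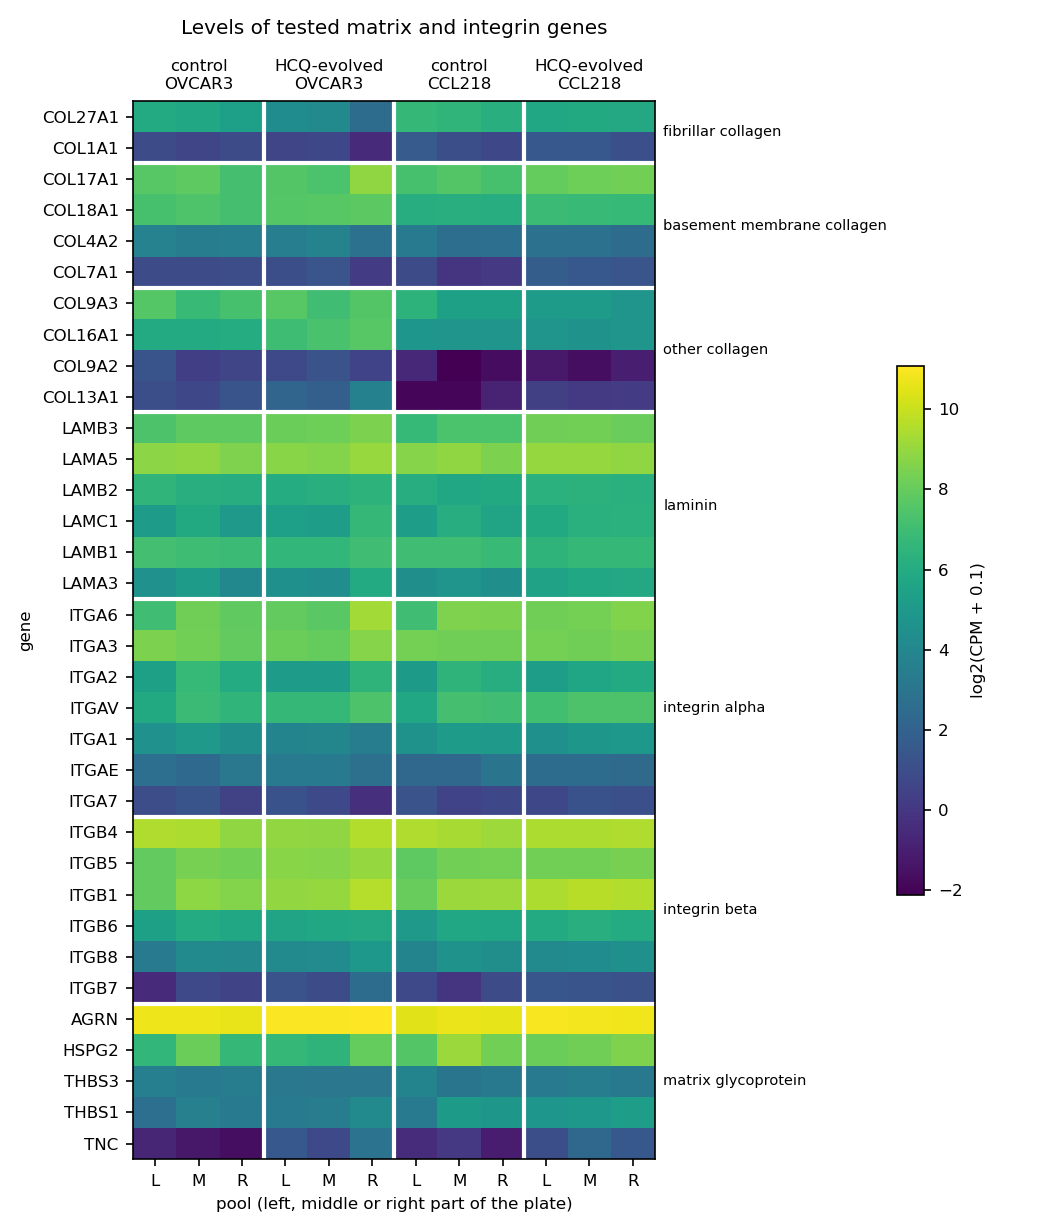
Heat map of log2(CPM + 0.1) for 34 tested members (rows, grouped by class) in 12 pools (columns: 4 groups, pools L, M and R). AGRN is the brightest row in every pool, and ITGA6, COL17A1 and LAMC1 are visibly brighter in the R pool of HCQ-evolved OVCAR3 than in its L and M pools.

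Levels between genes were compared per kb of exonic sequence. In the control pools AGRN (agrin, a heparan sulfate proteoglycan of basement membranes) was the highest member, at 156 CPM per kb in OVCAR3 and 145 CPM per kb in CCL218. Next came ITGB4 at 94 and 96.9, ITGB5 (a subunit of a vitronectin receptor) at 45.8 and 44.1, LAMB3 at 44.6 and 31, and ITGA6 at 33.4 and 42.8 CPM per kb. In both control groups AGRN and ITGB4 were apart from each other and from the rest in every pool, whereas the pools of ITGB5, LAMB3 and ITGA6 overlapped. Laminin chains were unequal: LAMA5 stood at 30.1 and LAMB3 at 44.6 CPM per kb in control OVCAR3, against 5.06 for LAMC1 and 1.77 for LAMA3. In CPM, 9 members exceeded 100 in all 12 pools.

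The chains of type IV collagen were low. COL4A2 was at 5.68 to 13.7 CPM over the 12 pools, while COL4A1, its neighbour and usual partner in the trimer, never exceeded 0.351 CPM. The pair is transcribed in opposite directions from starts that lie 126 bases apart. The stretch between them (chr13:110307158-110307283, GRCh38.p14, read along the plus strand toward COL4A2, from RefSeq starts) is shown because both genes share it while their levels differ; capitals mark a GC box, the letters GGGCGG.
COL4A1-COL4A2: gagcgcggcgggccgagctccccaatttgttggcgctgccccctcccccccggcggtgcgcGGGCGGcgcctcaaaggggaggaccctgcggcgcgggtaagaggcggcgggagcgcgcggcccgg
Of these bases, 26 next to COL4A2 are exonic in at least 1 GENCODE 44 transcript. COL4A2 did not pass the test in either line (log2 fold change -0.15 ± 0.26 in OVCAR3 and -0.23 ± 0.23 in CCL218, with the standard error), and these values were 0.07 without HCQ-evolved OVCAR3 R and 0.04 without control CCL218 L.

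In HCQ-evolved CCL218, LAMA3 and LAMB3, chains of the hemidesmosomal laminin, rose by 1.13 and 1.03 on the log2 scale, and so did COL17A1, the transmembrane collagen of the same structure. COL18A1, COL13A1 and TNC rose as well. In all, 7 of 34 members tested were higher (20.6%), against 3.82% of all 12241 genes tested that were higher. TNC and COL13A1 passed the filter on low values only through the evolved pools, in which they were high, so their differences are descriptions; the other 5 calls do not have this limit. No member passed as lower by edgeR (2.64% of all genes did), with 3 lower at an unadjusted p under 0.05 (12.7% of all genes) and 1 by DESeq2. The median log2 fold change of the 34 members was 0.24 against -0.017 for all genes, and 23 members were above 0 (67.6%, against 48.3% of all genes). Evolved pools were separate from and above the controls for 14 members (41.2%, against 18.6%) and below them for 4 (11.8%, against 17.3%).

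LAMA3 (laminin alpha 3; chromosome 18, 23689453 to 23956222, plus strand, GENCODE 44 on hg38) stood at 21.9, 27.4 and 22.2 CPM in the control L, M and R pools of CCL218 and at 44.8, 53.1 and 58.3 CPM in the HCQ-evolved pools. Every evolved pool was above every control pool (log2 fold change 1.13, SE 0.16, adjusted p = 0.0103 by edgeR, where SE is the standard error). LAMB3 (laminin beta 3; chromosome 1, 209614870 to 209652425, minus strand) stood at 106, 163 and 163 CPM in control pools and 301, 313 and 268 CPM after evolution. Its evolved pools were again all higher, and control L was the lowest pool (log2 fold change 1.03, SE 0.19, adjusted p = 0.0251). COL17A1 (chromosome 10, 104031286 to 104085880, minus strand) stood at 153, 190.4 and 152 CPM against 253, 293 and 309 CPM, with no overlap (log2 fold change 0.78, SE 0.14, adjusted p = 0.0246).

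In contrast, the integrin of this structure did not pass the test. ITGB4 was at 731, 669 and 565 CPM in control and 698, 709 and 728 CPM in HCQ-evolved CCL218, with overlapping pools (log2 fold change 0.12, SE 0.14, adjusted p = 0.618, and 0.20 without control L). ITGA6 was at 133, 369.7 and 354 CPM and 304, 321 and 380.1 CPM, also overlapping, with control L far below the other pools (log2 fold change 0.23, SE 0.36, adjusted p = 0.713, and -0.12 without that pool). The chains of the other laminins did not pass by edgeR either. LAMA5 changed by 0.26 ± 0.14, LAMB2 by 0.35 ± 0.13, LAMC1 by 0.50 ± 0.24 (0.31 without control L) and LAMB1 by -0.37 ± 0.13 (log2, with the standard error). For LAMB1 all evolved pools (87.5, 104 and 103 CPM) lay below all control pools (133, 132 and 114 CPM). Evolved pools lay above all control pools for LAMA5 (511, 507 and 482 against 414, 478 and 358 CPM). The same held for LAMB2 (79.3, 81.8 and 75.6 against 69.6, 56.7 and 59 CPM), which passed by DESeq2 (adjusted p = 0.0497). LAMA5 and LAMB1 share 244 and 300 bp of exons with ADRM1 and DLD on the other strand.

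The windows of 250 bases before the RefSeq start were available for 69 of 94 members. Those of LAMA3 (chr18:23872770-23873019, plus strand), LAMB3 (chr1:209652426-209652675, minus strand) and COL17A1 (chr10:104085881-104086130, minus strand; all GRCh38.p14) are shown because these 3 genes of one structure rose together; none of their bases is exonic in GENCODE 44, and that of LAMA3 lies inside the gene span. Each is written 5′ to 3′ on the strand of the gene, with capitals for AP-1 (TGANTCA), GC box (GGGCGG) and TATA box (TATAAA) letters on either strand.
LAMA3: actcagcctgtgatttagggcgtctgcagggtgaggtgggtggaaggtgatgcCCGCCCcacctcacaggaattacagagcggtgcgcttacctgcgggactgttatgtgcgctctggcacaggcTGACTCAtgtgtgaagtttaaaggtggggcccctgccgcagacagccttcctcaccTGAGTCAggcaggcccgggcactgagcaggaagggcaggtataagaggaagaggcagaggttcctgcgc
LAMB3: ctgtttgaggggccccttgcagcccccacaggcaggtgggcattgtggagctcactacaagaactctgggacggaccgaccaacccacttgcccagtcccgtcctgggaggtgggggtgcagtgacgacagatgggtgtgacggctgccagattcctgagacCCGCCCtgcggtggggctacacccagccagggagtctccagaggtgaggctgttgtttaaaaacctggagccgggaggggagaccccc
COL17A1: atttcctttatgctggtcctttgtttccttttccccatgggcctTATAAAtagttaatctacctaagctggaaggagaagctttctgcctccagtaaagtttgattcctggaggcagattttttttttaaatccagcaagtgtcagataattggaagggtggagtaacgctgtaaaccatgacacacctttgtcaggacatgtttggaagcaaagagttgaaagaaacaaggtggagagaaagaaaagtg
The LAMA3 window held 2 matches to the AP-1 letters, 125 and 69 bases before the start, and 1 GC box, and the AP-1 letters were absent from the windows of LAMB3 and COL17A1. Over 27305 windows of the same length, 6.6% held the AP-1 letters, 42.3% the GC box and 11.1% the TATA box. The LAMB3 window held 1 GC box (88 bases before the start), and that of COL17A1 held 1 TATA box, at 206 bases. Among the other members that rose in CCL218, the COL18A1 window held 9 GC boxes, TNC 1 and COL13A1 none. No matches overlapped in the 3 windows shown, and a match is a description of letters.

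The remaining members that rose in CCL218 belong to other structures. COL18A1, the source of endostatin in basement membranes (chromosome 21, 45405165 to 45513720, plus strand), stood at 69.3, 74 and 69 CPM in control and 119, 113 and 106 CPM in HCQ-evolved pools, with no overlap and little spread (log2 fold change 0.67, SE 0.11, adjusted p = 0.0193, edgeR). It shares 1563 bp of exons with SLC19A1 on the other strand, and whether counting used strand is not given in the sources used here. TNC (tenascin C, an anti-adhesive glycoprotein of wounds and tumours; chromosome 9, 115019575 to 115118207, minus strand) stood at 0.639, 0.957 and 0.384 CPM in control and 1.97, 5.03 and 2.77 CPM in HCQ-evolved pools, and its evolved pools were apart from control but unequal (log2 fold change 2.30, SE 0.46, adjusted p = 0.0332). COL13A1 (a transmembrane collagen of cell junctions; chromosome 10, 69801880 to 69964275, plus strand) stood at 0.172, 0.174 and 0.469 CPM against 1.19, 0.984 and 1.07 CPM, low in every pool and without overlap (log2 fold change 1.96, SE 0.41, adjusted p = 0.0381). COL13A1 reached the filter level in 0 of 3 control pools and TNC in 1 of 3.

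These 6 genes kept their direction in every fit with a single CCL218 pool left out that tested them, but each lost the call in at least 1. COL17A1, COL18A1, LAMB3 and TNC were not called without control R or without any 1 of the HCQ-evolved pools (adjusted p 0.0663 to 0.16), LAMA3 without control R or HCQ-evolved M or R (0.0672 to 0.0858) and COL13A1 without control M (0.0801), while without any 1 evolved pool COL13A1 was too low to be tested. Without control L, 11 members were higher (13.6% of all genes) and 3 lower (11.6% of all genes), with COL7A1, ITGB1, ITGB6 and LAMB2 added as higher and COL27A1, ITGA2 and LAMB1 as lower. Of the other fits, 6 members were higher without control M (2.44% of all genes), 1 without control R (0.924%), 1 without HCQ-evolved L (0.89%), and 0 without HCQ-evolved M (0.594%) or R (0.89%). Without control L, the changes of LAMA3 and LAMB3 were 1.06 and 0.84.

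**Figure D2:**
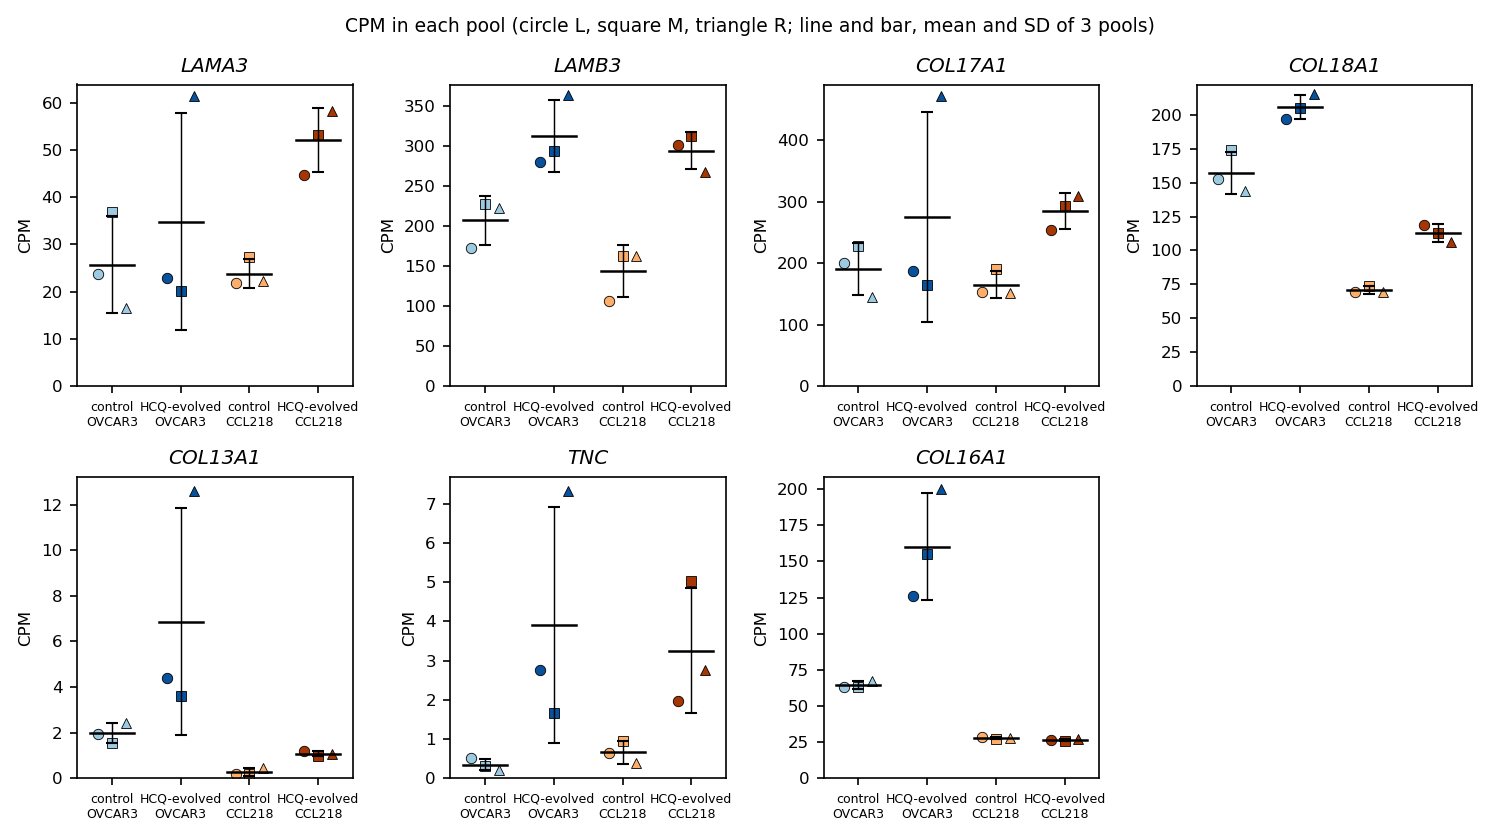
CPM of 7 called members in each pool (y axes start at 0; circle L, square M, triangle R; line and bar, mean and SD of 3 pools). In CCL218 the evolved pools of the first 6 genes lie above all control pools, and in OVCAR3 the R pool of HCQ-evolved cells is the highest point for all 7.

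Several other members differed without passing the threshold. COL7A1, the anchoring fibril collagen beneath hemidesmosomes, stood at 1.75, 0.827 and 0.939 CPM in control and 3.39, 2.77 and 2.44 CPM in HCQ-evolved CCL218, apart in all pools (log2 fold change 1.29, SE 0.33, adjusted p = 0.0642). Its difference was 1.68 without control L. COL7A1 reached the filter level in all evolved pools but only 2 of 3 control pools, so its differences are descriptions. ITGB1, the beta subunit shared by most matrix integrins, stood at 257, 559.6 and 578 CPM and 699.8, 803 and 768 CPM (log2 fold change 0.70, SE 0.29, adjusted p = 0.192). This difference was 0.40 without control L, with an adjusted p of 0.0111. COL27A1, a fibrillar collagen of cartilage, stood at 101, 91.9 and 70.8 CPM in control pools and lower, at 54, 59.4 and 58.5 CPM, in all evolved pools (log2 fold change -0.62, SE 0.16, adjusted p = 0.0641). COL9A3, a collagen that sits on cartilage fibrils, stood at 87.2, 41.6 and 41.5 CPM against 36, 34.4 and 26.9 CPM (log2 fold change -0.81, SE 0.31, adjusted p = 0.165), and its difference was -0.37 without control L.

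The CCL218 pools were treated as paired by plate position, and a fit with position as a replicate block was run beside the unpaired one. Control M correlated more with HCQ-evolved R (0.433) than with HCQ-evolved M (0.233), so the pairing is an assumption. With the block, 9 members were higher (7.82% of all genes) and 2 lower (6.43% of all genes). The 6 genes above were all called (adjusted p 0.00222 to 0.0154), COL7A1 (1.34, adjusted p = 0.0142, a description as above) and ITGB1 (0.79, 0.0369) were added as higher, and COL27A1 (-0.61, 0.0356) and COL9A3 (-0.73, 0.0388) as lower. In one edgeR fit of all 12 pools, LAMA3 (adjusted p = 0.136), COL17A1 (0.221) and COL13A1 (0.0638) lost the CCL218 call. COL18A1 (0.00804), LAMB3 (0.0118) and TNC (0.0488) kept it there.

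In HCQ-evolved OVCAR3, TNC and COL16A1 rose. These were 2 of 35 members tested (5.71%), against 0.647% of all 12204 genes tested that were higher. TNC was below the filter level in every control pool and was tested only through its evolved pools, so its difference is a description and COL16A1 is the 1 call without this limit. No member passed as lower by edgeR (1.21% of all genes did), with 2 lower at an unadjusted p under 0.05 (7.87% of all genes) and 2 by DESeq2. The median log2 fold change over the 35 members was 0.34 against 0.016 for all genes, and 0.07 without HCQ-evolved R. Of the 35 members, 23 were above 0 (65.7%, against 51.6% of all genes), and evolved pools lay above all control pools for 9 (25.7%, against 13.0%) and below them for 3 (8.57%, against 12.7%).

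TNC stood at 0.516, 0.314 and 0.222 CPM in the control L, M and R pools of OVCAR3 and at 2.76, 1.66 and 7.33 CPM in the HCQ-evolved pools. Evolved pools were all higher, R most of all (log2 fold change 3.53, SE 0.66, adjusted p = 0.0479, edgeR). Without any 1 control pool TNC was not called (adjusted p 0.146 to 0.233, log2 fold change 3.25 to 3.89), and without any 1 evolved pool it was too low to be tested. COL16A1 (a collagen associated with fibrils and integrin adhesion; chromosome 1, 31652263 to 31704319, minus strand) stood at 63, 63 and 67.4 CPM in control pools, which hardly differed, and at 126, 155 and 199.8 CPM in evolved pools, all of them higher (log2 fold change 1.34, SE 0.22, adjusted p = 0.0309). The COL16A1 call was lost without any 1 pool other than HCQ-evolved R (adjusted p 0.0588 to 0.179), and without HCQ-evolved R the change was 1.13 (adjusted p = 0.0111).

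LAMA3 and LAMB3, which rose in CCL218, did not pass in OVCAR3. LAMB3 came nearest, at 172, 227 and 223 CPM in control and 279.6, 294 and 364 CPM in evolved pools, with no overlap (log2 fold change 0.61, SE 0.20, adjusted p = 0.191). LAMA3 was at 23.7, 36.8 and 16.5 CPM against 22.9, 20.2 and 61.4 CPM, and the groups overlapped with R far above L and M (log2 fold change 0.47 ± 0.49). Without HCQ-evolved R this value was -0.24. COL17A1 stood at 199.6, 228 and 145 CPM against 187, 165 and 472 CPM, again with R alone above the control range (0.55 ± 0.42, and -0.11 without R). COL18A1 did separate, at 153, 174 and 144 CPM against 197, 205 and 215 CPM (log2 fold change 0.41, SE 0.16, adjusted p = 0.271), as did COL13A1, at 1.96, 1.57 and 2.42 CPM against 4.40, 3.59 and 12.6 CPM (log2 fold change 1.81, SE 0.51, adjusted p = 0.128, and 1.01 without R).

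Several integrins of OVCAR3 were also highest in that pool. ITGA6 stood at 134, 302 and 233 CPM in control and 238, 207 and 617 CPM in evolved pools, where only R lay outside the control range (0.69 ± 0.49, adjusted p = 0.54). Without R this change was near 0. ITGB1 stood at 239.6, 455 and 394 CPM against 488, 507 and 779 CPM, apart in all pools (log2 fold change 0.72, SE 0.31, adjusted p = 0.314, and 0.45 without R), and ITGB5 at 242, 339.6 and 314 CPM against 432, 409 and 516 CPM, also apart (log2 fold change 0.62, SE 0.21, adjusted p = 0.197). ITGB7, a leukocyte integrin subunit that shares 1881 bp of exons with ZNF740 on the other strand, was at 0.593, 1.66 and 1.41 CPM against 2.27, 1.76 and 5.87 CPM (log2 fold change 1.46, SE 0.58, adjusted p = 0.267, and 0.72 without R). ITGB7 reached the filter level in all evolved pools but only 2 of 3 control pools, so its difference is a description. ITGA1, a collagen receptor subunit that shares 499 bp with PELO on its own strand, was lower in all evolved pools, at 14.1, 15.1 and 11.2 CPM against 23.3, 31 and 21.8 CPM (log2 fold change -0.90, SE 0.22, adjusted p = 0.0896). No integrin subunit passed in the unpaired edgeR fit of either line with all its pools. ITGA1 passed in OVCAR3 by DESeq2 (adjusted p = 0.00439) and in one edgeR fit of all 12 pools (0.0182), and in CCL218 ITGB1 passed with the block, and ITGB1, ITGB6 and ITGA2 without control L.

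The 5 subunits named next overlapped between groups, except for ITGB6 in CCL218. ITGA3, which pairs with beta 1 to bind laminin, was at 246 to 418 CPM over the 12 pools and changed by 0.08 ± 0.25 in OVCAR3 and 0.05 ± 0.11 in CCL218. ITGA2, the other main collagen receptor subunit, changed by -0.39 ± 0.48 and -0.32 ± 0.35, or by -1.01 without HCQ-evolved OVCAR3 R and -0.63 without control CCL218 L. ITGAV, the alpha subunit of RGD-binding integrins, changed by 0.49 ± 0.33 and 0.52 ± 0.33, or by 0.18 and 0.20 without those pools. Its partners ITGB6 and ITGB8, which release latent TGF-beta, changed by 0.03 ± 0.22 and 0.58 ± 0.32 in OVCAR3 (ITGB8 by 0.28 without R) and by 0.52 ± 0.21 and -0.02 ± 0.22 in CCL218 (by 0.31 and -0.22 without control L). ITGB6 stood at 32.1, 55.5 and 50.5 CPM in control and 62.8, 71.4 and 64.6 CPM in HCQ-evolved CCL218, higher in all evolved pools (adjusted p = 0.178, and 0.043 without control L). The alpha 5 subunit of the fibronectin receptor (ITGA5) never exceeded 0.103 CPM.

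COL27A1 was the member with the lowest log2 fold change in OVCAR3, at 61.8, 53.1 and 39.7 CPM in control and 19.6, 18 and 5.72 CPM in evolved pools. All evolved pools were lower and R the lowest (log2 fold change -1.82, SE 0.44, adjusted p = 0.0875). Without HCQ-evolved R the change was -1.44 and passed (adjusted p = 0.0125), so that 1 member was higher (1.92% of all genes) and 1 lower (2.67% of all genes) in that fit. COL27A1 also passed by DESeq2 (0.000966).

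**Figure D3:**
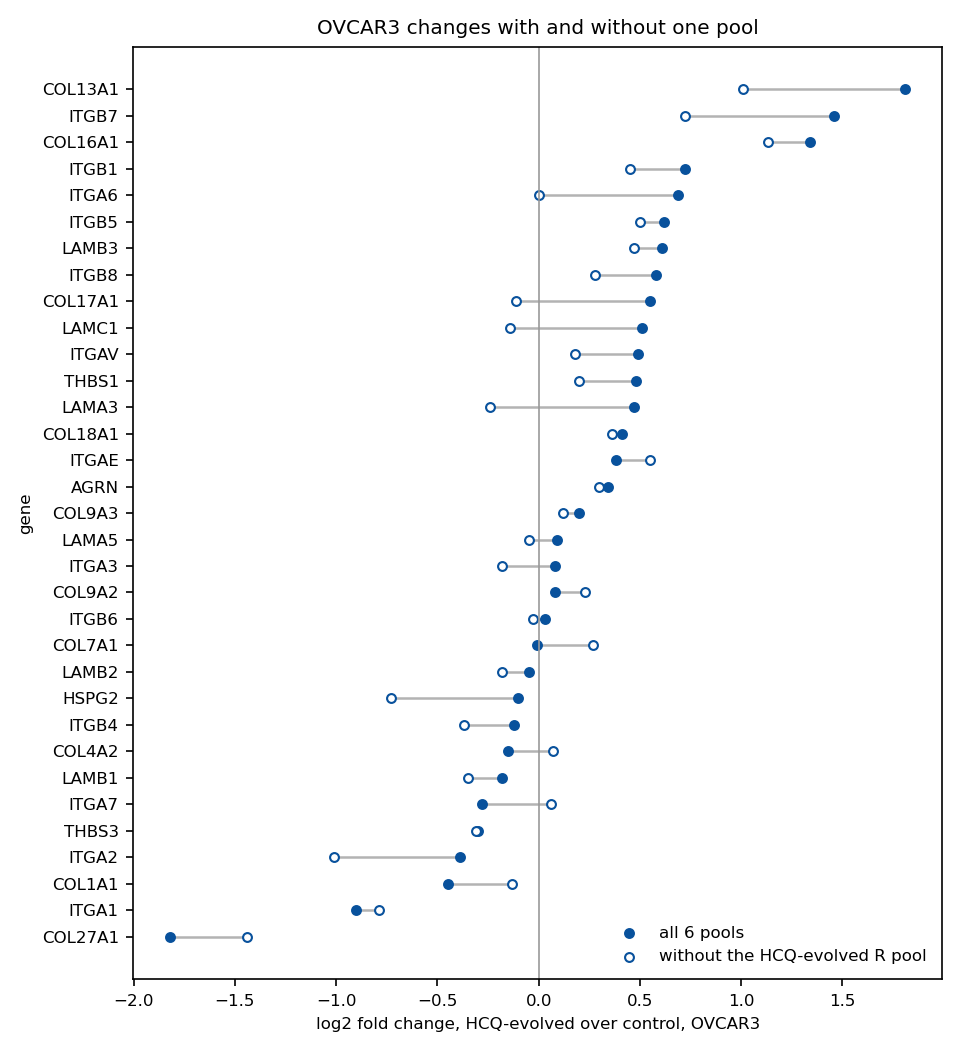
Log2 fold changes (HCQ-evolved over control, x axis) in OVCAR3 of 33 members that could be tested both with all 6 pools (filled) and without the HCQ-evolved R pool (open). Of 21 points above 0 with all pools, 19 are lower without that pool, and the median of all members tested is 0.34 with it and 0.07 without.

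Among glycoproteins, FN1 (fibronectin) was below the testing level. It stood at 0.734, 1.29 and 10.3 CPM in HCQ-evolved OVCAR3 L, M and R, and the highest of the other 9 pools was at 0.911 CPM, so 1 pool carried its signal. AGRN lay above control in all evolved pools of both lines without passing, at 1684 ± 82.3 CPM (mean ± SD, n = 3) against 2107 ± 66.1 CPM in OVCAR3 (log2 fold change 0.34, SE 0.19, adjusted p = 0.431) and 1556 ± 125 CPM against 1872 ± 85.2 CPM in CCL218 (log2 fold change 0.26, SE 0.13, adjusted p = 0.258). HSPG2 (perlecan, the other main basement membrane proteoglycan) ranged from 97.9 to 278 CPM in control OVCAR3 and 189 to 555 CPM in control CCL218, with M highest in both, and changed by -0.10 ± 0.54 and -0.18 ± 0.36, or by -0.73 and -0.49 without HCQ-evolved OVCAR3 R and control CCL218 L. THBS1 (thrombospondin 1, an activator of TGF-beta) changed by 0.48 ± 0.33 and 0.43 ± 0.41, or by 0.20 and 0.06 without those pools. THBS3 changed by -0.30 ± 0.18 and -0.09 ± 0.23, the latter 0.19 without control L.

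A joint fit of 12 pools tested whether changes differed between lines (an interaction). COL16A1 alone passed, with the change in CCL218 lower by 1.39 (standard error 0.22, adjusted p = 0.0146), or 1 of 35 members (2.86%) against 0.182% of all 12613 genes that were lower. In CCL218 COL16A1 was at 28.5, 27.3 and 27.6 CPM in control and 26.8, 25.5 and 26.9 CPM in HCQ-evolved pools, slightly lower after evolution in all pools (log2 fold change -0.08, SE 0.11, adjusted p = 0.695). The interaction was not called without HCQ-evolved CCL218 L or M (adjusted p = 0.0577 and 0.069). No member passed as higher by edgeR (0.69% of all genes did), with 3 at an unadjusted p under 0.05 (5.41% of all genes) and 0 by DESeq2. For the 6 genes described above as higher in CCL218 the difference between lines ranged from -1.19 (TNC) to 0.68 (LAMA3), with adjusted p from 0.755 to 0.999, so a difference between the lines was not shown for any of them, LAMA3 and LAMB3 included (0.68 ± 0.56 and 0.44 ± 0.27).

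**Figure D4:**
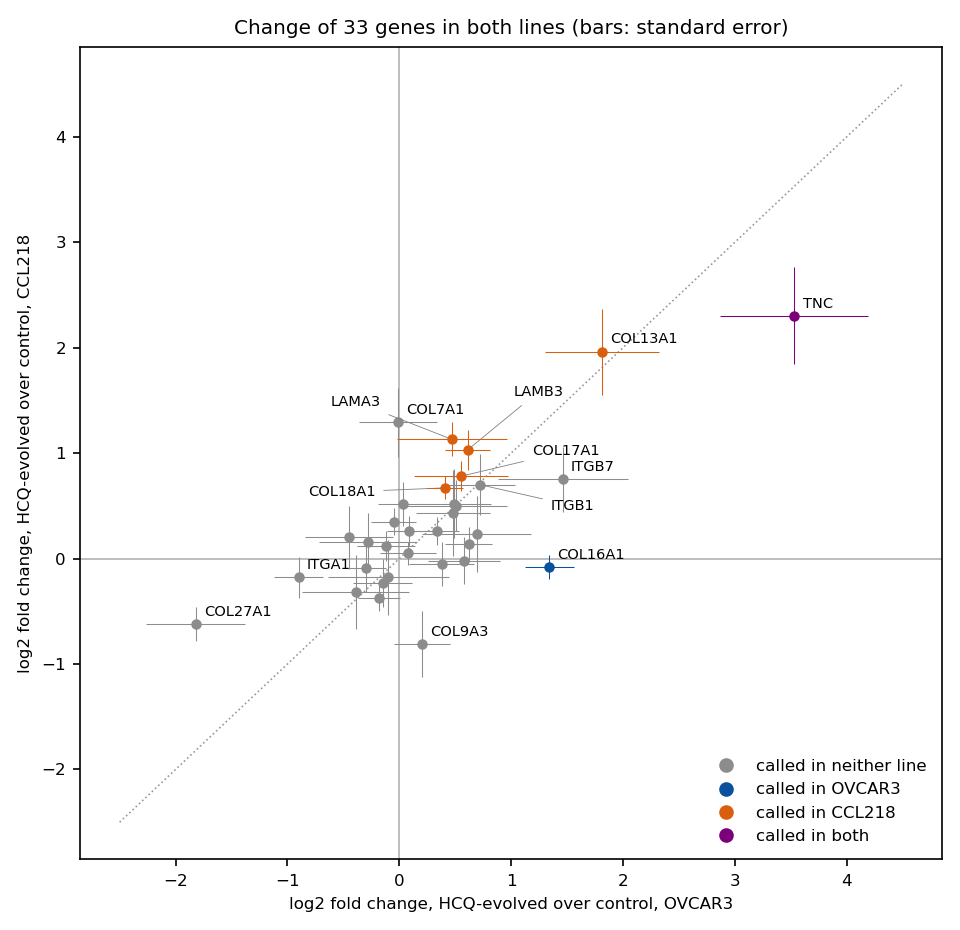
Log2 fold change (HCQ-evolved over control) in OVCAR3 (x axis) and CCL218 (y axis) of 33 members tested in both lines, with standard errors as bars and equality as a dotted line. TNC is high in both, COL16A1 lies far to the right at a CCL218 change near 0, and LAMA3 and LAMB3 lie at 1.13 and 1.03 in CCL218 and 0.47 and 0.61 in OVCAR3.

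At baseline, 3 collagen chains were lower in control CCL218 than in control OVCAR3: COL13A1 (log2 fold change -2.85, SE 0.45, adjusted p = 0.0262), COL16A1 (log2 fold change -1.22, SE 0.15, adjusted p = 0.0106) and COL18A1 (log2 fold change -1.15, SE 0.15, adjusted p = 0.014). These were 3 of 34 members (8.82%), against 1.08% of all 12324 genes tested that were lower. COL13A1 was below the filter level in every control CCL218 pool and was tested only through control OVCAR3, where it is high, so its difference is a description. No member was higher in CCL218 by edgeR (0.941% of all genes were), with 2 at an unadjusted p under 0.05 (5.62% of all genes) and 2 by DESeq2. Pools of control CCL218 lay below those of control OVCAR3 for 8 members (23.5%, against 8.99%) and above for 1 (2.94%, against 8.63%). No laminin or integrin passed, with log2 differences of -0.05 ± 0.18 for LAMA5, 0.04 ± 0.22 for ITGB4 and 0.01 ± 0.18 for ITGA3. COL9A3 (control CCL218 87.2, 41.6 and 41.5 CPM against control OVCAR3 195, 115 and 153 CPM, log2 fold change -1.44, SE 0.35, adjusted p = 0.113) and COL9A2 (-2.47, adjusted p = 0.0931) did not pass, and both were called by DESeq2. COL9A2 reached the filter level in 0 of 3 control CCL218 pools and was tested only through control OVCAR3, so its difference is a description in every fit. COL16A1 and COL18A1 lost the call without control OVCAR3 L or R or control CCL218 M or R (adjusted p up to 0.11), and COL13A1 without control CCL218 M (0.11). In all, 0 to 6 members were lower with 1 control pool left out: 6 without CCL218 L (2.54% of all genes), 2 without OVCAR3 M (0.418%), 1 without CCL218 R (0.196%) and 0 without OVCAR3 L (0.164%), OVCAR3 R (0.082%) or CCL218 M (0.262%).

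Control pools of both lines were treated as paired by position as well. With a replicate block, 6 members were higher in control CCL218 (THBS1, HSPG2, COL27A1, ITGB8 and ITGB1 among them) and 8 lower (the 3 above with COL9A2, COL9A3, COL4A2, LAMB3 and LAMB2), but 17.6% and 18.8% of all genes were called higher and lower in that fit.

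Genes that work with the members were described from 5 lists. Of 12 enzymes that modify or crosslink collagen, 2 rose in OVCAR3 and 0 fell (0 lower at an unadjusted p under 0.05 or by DESeq2), against 0.647% and 1.21% of all genes. In CCL218, 3 rose and 1 fell, against 3.82% and 2.64%. The median log2 fold change of the list was 0.22 in OVCAR3 and -0.05 in CCL218. P4HA2, a prolyl 4-hydroxylase alpha subunit that stabilises the triple helix, rose in both lines: from 80.9, 86.4 and 99.1 CPM to 237, 244 and 192 CPM in OVCAR3 (log2 fold change 1.35, SE 0.18, adjusted p = 0.0186) and from 57.8, 60.4 and 54.6 CPM to 295, 323 and 262 CPM in CCL218 (log2 fold change 2.34, SE 0.13, adjusted p = 0.000453). P4HA1, the other main alpha subunit, rose from 91.9, 139 and 134 CPM to 353, 437 and 342 CPM in OVCAR3 (log2 fold change 1.65, SE 0.23, adjusted p = 0.0215) and from 68.7, 125 and 108 CPM to 486, 551 and 426 CPM in CCL218 (log2 fold change 2.28, SE 0.24, adjusted p = 0.00409). PLOD2, a lysyl hydroxylase, rose in CCL218 from 121, 149 and 127 CPM to 385, 440.1 and 352 CPM (log2 fold change 1.57, SE 0.14, adjusted p = 0.00253). LOXL4, a lysyl oxidase that crosslinks collagen, fell there from 87, 60.8 and 71.5 CPM to 27.3, 23.8 and 35.8 CPM (log2 fold change -1.34, SE 0.21, adjusted p = 0.0145). Groups did not overlap in any of these comparisons. In CCL218 P4HA1, P4HA2 and PLOD2 were called in all 6 fits with a single pool left out, unlike the 6 members described above. In OVCAR3 P4HA1 and P4HA2 were called in 1 of 6 such fits (adjusted p up to 0.137). SERPINH1, the collagen chaperone, was at 162 and 134 CPM in OVCAR3 and 130 and 91.4 CPM in CCL218 before and after evolution.

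Of 26 focal adhesion genes tested, 0 were called in OVCAR3 by edgeR (0.647% of all genes were higher and 1.21% lower). At an unadjusted p under 0.05 there were 0 as well (8.38% and 7.87% of all genes), and 0 by DESeq2. In CCL218 NEDD9, an adaptor of integrin signalling, rose (log2 fold change 0.88, SE 0.18, adjusted p = 0.0362) and TNS4, a tensin, fell (log2 fold change -0.94, SE 0.22, adjusted p = 0.0489). These were 1 higher and 1 lower of 26 (3.82% and 2.64% of all genes), and with the block 3 and 3 (7.82% and 6.43%). ZYX (zyxin) changed by -0.47 ± 0.22 in OVCAR3 and -0.52 ± 0.20 in CCL218 without passing. Of 8 hemidesmosome and tetraspanin genes tested, CD9 rose in CCL218 (log2 fold change 0.58, SE 0.13, adjusted p = 0.0407). This was 1 higher and 0 lower of 8 (3.82% and 2.64% of all genes). At an unadjusted p under 0.05, 2 were higher and 1 lower (12.5% and 12.7% of all genes). In OVCAR3 0 passed by edgeR (0.647% of all genes were higher and 1.21% lower). There 1 was higher and 1 lower at an unadjusted p under 0.05 (8.38% and 7.87% of all genes), and 1 and 1 by DESeq2. CD81, a tetraspanin, had the smallest p there (log2 fold change -1.17, SE 0.24, adjusted p = 0.0596). KRT5 and KRT14, the basal keratins of hemidesmosomes in skin, never exceeded 0.14 CPM.

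Among other matrix receptors, DDR1, a collagen receptor kinase, rose in CCL218 (log2 fold change 0.56, SE 0.12, adjusted p = 0.0362), where CD44, the hyaluronan receptor, fell from 378, 488 and 435 CPM to 239, 259 and 288 CPM (log2 fold change -0.73, SE 0.14, adjusted p = 0.0299) and MCAM, a laminin-binding adhesion molecule, fell from 5.65, 7.83 and 6.49 CPM to 3.04, 3.10 and 2.62 CPM (log2 fold change -1.19, SE 0.19, adjusted p = 0.0144). These were 1 higher and 2 lower of 13 tested (3.82% and 2.64% of all genes), and with the block 3 and 3 (7.82% and 6.43%). In OVCAR3 GPC4, a glypican, fell from 7.43, 11.2 and 7.36 CPM to 0.873, 0.386 and 0.1 CPM (log2 fold change -4.24, SE 0.65, adjusted p = 0.0281), 1 of 14 tested (1.21% of all genes were lower). It was also lower in all evolved pools of CCL218 (0.0821, 0.0729 and 0.267 against 0.934, 2.74 and 1.83 CPM), where it was too low to be tested. GPC4, and BGN below, reached the filter level in OVCAR3 only in control pools, so these differences are descriptions. In OVCAR3 0 receptors were higher by edgeR (0.647% of all genes). By DESeq2 2 were higher and 2 lower. At an unadjusted p under 0.05, 2 were higher and 3 lower (8.38% and 7.87% of all genes).

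Other matrix proteins moved unevenly. BGN (biglycan, a small leucine-rich proteoglycan) fell in both lines, from 5.93, 3.39 and 3.03 CPM to 0.734, 0.694 and 0.603 CPM in OVCAR3 (log2 fold change -2.58, SE 0.34, adjusted p = 0.0173) and from 9.24, 3.48 and 4.82 CPM to 0.78, 1.31 and 1.47 CPM in CCL218 (log2 fold change -2.29, SE 0.42, adjusted p = 0.026). In CCL218 BGN reached the filter level in all control pools but not in HCQ-evolved L (0.78 CPM), so its difference there is a description too. CCN1 and CCN2, matricellular proteins that bind integrins, fell in OVCAR3 alone. CCN2 went from 55.2, 109 and 108 CPM to 8.52, 9.68 and 2.29 CPM (log2 fold change -3.73, SE 0.57, adjusted p = 0.0272) and CCN1 from 55, 46.7 and 43.7 CPM to 12.9, 13.2 and 6.54 CPM (log2 fold change -2.14, SE 0.29, adjusted p = 0.0206), and the change of both differed between lines (adjusted p = 0.0223 and 0.0267). In CCL218 NPNT (nephronectin, an integrin ligand of basement membranes) rose (log2 fold change 1.23, SE 0.16, adjusted p = 0.00733), as did ECM1 (log2 fold change 1.63, SE 0.23, adjusted p = 0.0111) and TGFBI (log2 fold change 0.84, SE 0.18, adjusted p = 0.0379). Of 17 tested in OVCAR3, 3 were lower (CCN1, CCN2 and BGN, the last a description) and 0 higher by edgeR, against 1.21% and 0.647% of all genes. By DESeq2 4 were lower and 1 higher. At an unadjusted p under 0.05, 6 were lower and 2 higher (7.87% and 8.38% of all genes). The median log2 fold change of the list was -0.28 in OVCAR3 and -0.05 in CCL218. Of 18 tested in CCL218, 3 were higher and 1 lower (BGN, a description), against 3.82% and 2.64% of all genes, and with the block 4 and 2 (7.82% and 6.43%). Each of the 11 partner genes called in CCL218 beside P4HA1, P4HA2 and PLOD2 lost the call in at least 3 of 6 fits with 1 pool left out, and in OVCAR3 each of the 6 called genes lost it in at least 1.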

How the data were processed

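RNA of 12 pools was sequenced after polyA selection. The authors aligned reads to hg38 with STAR, removed duplicates with RmDup and deposited counts per gene from featureCounts; tool versions and the use of strand are not given in the sources used here. Counts were used as deposited, with 0 columns left without a sample. Of entries of 1 to 4 counts 78.9% were even, so low counts move in steps. Counts were scaled by TMM (factors 0.868 to 1.09), and each line was fitted alone in edgeR 4.0.16 under R 4.3.3 (glmQLFit and glmQLFTest, robust, legacy mode), for genes that reached 1 CPM (before TMM scaling) in 3 or more pools of the fit, which a gene can do through 1 group alone. Benjamini-Hochberg adjustment was over all genes, with a threshold of 0.05. A fit of all pools gave the interaction between drug history and line. Levels per kb used the union of exons in GENCODE 44, which matched all 94 members and 25763 of 28278 symbols (91.1%). Upstream windows came from RefSeq on GRCh38.p14.

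Alternatives were DESeq2 size factors, no filter, DESeq2 1.42.0, all 12 pools in one fit, a replicate block, removal of a length and GC trend, and single pools left out. After group means were removed, pools of the same position correlated across genes by 0.506 (L), 0.233 (M) and 0.195 (R) between control and HCQ-evolved CCL218 and by 0.846, 0.804 and 0.237 between the control groups, all above 0.1, so these were treated as paired. Some pools of unlike position correlated too, by 0.433 for control M with HCQ-evolved R in CCL218. For control OVCAR3 M with control CCL218 R the value was 0.494. The other unlike pairs were lower than the same-position values. Pairing by position is thus an assumption of these fits. In OVCAR3 pools of the same position did not pair.

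Members, partner and marker lists and the naming rule were chosen with earlier results of these data known. Named genes are members called in either line or the interaction, a core set by role, the highest and most changed member of each class, the called members most different between control lines, and the partner with the smallest p in each list and line. COL1A2, COL3A1, VTN, TNXB, COL11A2, ITGA5, THBS3, COL9A2, P4HA1, PLOD2, LOXL4, TNS4, DDR1, CD44, ECM1, TGFBI, CCN1, CCN2, SERPINH1, KRT5 and KRT14 were named after their values were seen. The pipeline was tested on simulated data. Single-cell and exome data were not analysed here. The values of 1 member, which the counts include, are not reported here.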

Additional observations from a re-analysis of the deposited data

Results flagged for a closer look

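The change with HCQ evolution differed between the lines, by an interaction term in edgeR's quasi-likelihood test over 12 pools, for COL16A1 among members and for 3 partner genes. COL16A1 differed by -1.39 (change in CCL218 minus change in OVCAR3): it was higher in 3 of 3 evolved pools of OVCAR3 and slightly lower in 3 of 3 of CCL218. P4HA2 differed by 1.01, with all evolved pools above control in both lines. CCN2 differed by 3.60 and CCN1 by 2.14, each lower in 3 of 3 evolved pools of OVCAR3 and overlapping in CCL218. Adjusted p-values were 0.0146, 0.0435, 0.0223 and 0.0267. With 1 pool left out COL16A1 was called in 10 of 12 fits, CCN2 in 6, CCN1 in 5 and P4HA2 in 1. With a replicate block the adjusted p was 0.0913 for COL16A1, 0.228 for P4HA2, 0.107 for CCN2 and 0.0393 for CCN1.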

How the results depend on the processing

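Among 104 named results, 560 recalculations in other settings kept direction and side of the threshold, 24 newly passed, 19 no longer passed and 10 reversed; with single pools left out these were 489, 12, 137 and 37. Members higher in OVCAR3 were 0 with the replicate block, and lower members were 1 without a filter, 2 by DESeq2 and 2 with all 12 pools in one fit. In CCL218, 3 were higher with all 12 pools in one fit, and lower members were 1 by DESeq2, 2 with the replicate block and 1 with the length and GC trend removed. The interaction had 0 lower with the replicate block. Between control lines, 2 were higher by DESeq2 and 6 with the replicate block, and 5 were lower without a filter, by DESeq2, with all 12 pools and with the trend removed, and 8 with the replicate block. Each cause was not tested. Beyond CCL218 and the control lines the block changed the calls of COL16A1, P4HA2 and CCN2 in the interaction. It also changed those of TNC, COL16A1 and P4HA2 in OVCAR3, where same-position pools correlated by 0.401 (L), -0.665 (M) and -0.478 (R).

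With single pools left out, higher members ranged from 0 to 1 in OVCAR3 and 0 to 11 in CCL218, and from 0 to 1 between control lines; lower members ranged from 0 to 1, 0 to 3 and 0 to 6, and from 0 to 1 in the interaction. Where 1 arm held 2 pools the fit shared its spread over all pools.

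Signs turned for genes near 0. Without a filter these were CCN1 in CCL218 (0.018), COL7A1 in OVCAR3 (0.025) and ITGB8 in CCL218 (0.0062, and 0.0029 with the replicate block). With the trend removed they were, in OVCAR3, COL4A2 (0.019), COL7A1 (0.14), ITGB4 (0.011), ITGB6 (-0.084) and LAMB2 (0.037). MCAM in OVCAR3 was -0.18 with the replicate block. With single pools left out, log2 fold changes in OVCAR3 ranged from -0.11 to 0.83 for COL17A1, -0.35 to 0.075 for COL4A2, -0.28 to 0.27 for COL7A1, -0.73 to 0.59 for HSPG2, -1.01 to 0.034 for ITGA2, -0.18 to 0.23 for ITGA3, -0.0044 to 0.97 for ITGA6, -0.37 to 0.012 for ITGB4, -0.14 to 0.18 for ITGB6, -0.24 to 0.83 for LAMA3, -0.052 to 0.17 for LAMA5, -0.18 to 0.048 for LAMB2, -0.14 to 0.84 for LAMC1 and -0.99 to 0.75 for MCAM. In CCL218 they ranged from -0.15 to 0.20 for CCN1, -0.35 to 0.037 for COL4A2, -0.49 to 0.31 for HSPG2, -0.12 to 0.46 for ITGA6, -0.012 to 0.23 for ITGB5 and -0.22 to 0.15 for ITGB8. Differences between lines ranged from -0.12 to 0.97 for COL13A1 and -0.0035 to 0.90 for COL17A1.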
